A study of Homo sapiens with 20 samples.

Results

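TXNIP, 2 arrestin-domain relatives of it (ARRDC3 and ARRDC4), the glucose transporter genes SLC2A1 and SLC2A3, and MLX and MLXIP were followed in 5 established triple-negative breast cancer (TNBC) cell lines treated with wound healing fluids (WHFs) or left untreated. These 7 genes were chosen by name from earlier results of the same arrays, so their changes with WHFs are given as a description. How many passed the thresholds of the fit over all probes is stated once, beside the share of all probes that did. The array annotation gave them 10 probes among the 47319 on the array. The 10 groups of 2 arrays each, labelled replicates A and B, were WHF-treated and untreated MDA-MB-231, BT549 and MDA-MB-157 cells, which the study classes as mesenchymal-like, and WHF-treated and untreated MDA-MB-468 and SUM 149 cells, which it classes as basal-like. All cultures were kept without serum for 24 h, and WHF-treated cells then received pooled post-surgery drainage fluid of breast cancer patients at 5% for 48 h. Untreated cells received no fluid over the same 48 h. As there was no control with another fluid or serum, effects particular to WHFs cannot be told apart from those of feeding starved cells. Fluids of several patients were pooled for each experiment, each line is a single established line, and all values come from bulk RNA, in which a change in the share of cells that express a gene and a change in its RNA per cell cannot be told apart.

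TXNIP binds thioredoxin and belongs to the alpha-arrestin family, whose members take up cargo at the cell membrane with the help of ubiquitin ligases. It also lowers glucose uptake, in part by removing the transporter GLUT1, encoded by SLC2A1, from the cell surface. MLX and MondoA, the product of MLXIP, form a transcription factor pair that senses sugar phosphates, and TXNIP and ARRDC4 are its best known targets. The pair binds a carbohydrate response element, 2 half-sites of the form CACGNG set 5 bases apart.

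The promoter windows of TXNIP and ARRDC4 are shown because these are the best known targets of that pair. RefSeq (build GRCh38.p14) listed 2 windows for TXNIP, 2 for ARRDC3 and 1 each for ARRDC4, SLC2A1, MLX and MLXIP, each of 300 bases with 250 before the start of transcription. No window was available for SLC2A3, so its promoter was not searched. Both strands were searched for CACGNG repeated after 5 bases and for the palindrome CACGTG. The TXNIP stretch below is chr1:145996580-145996829 on the minus strand and the ARRDC4 stretch is chr15:97960453-97960702 on the plus strand. Each gives the 250 bases before the start, with the matches in capitals.
TXNIP: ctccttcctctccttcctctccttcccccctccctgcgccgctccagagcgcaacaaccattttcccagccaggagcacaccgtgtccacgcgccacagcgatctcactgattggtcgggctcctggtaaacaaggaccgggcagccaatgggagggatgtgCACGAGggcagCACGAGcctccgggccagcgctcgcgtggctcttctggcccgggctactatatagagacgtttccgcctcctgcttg
ARRDC4: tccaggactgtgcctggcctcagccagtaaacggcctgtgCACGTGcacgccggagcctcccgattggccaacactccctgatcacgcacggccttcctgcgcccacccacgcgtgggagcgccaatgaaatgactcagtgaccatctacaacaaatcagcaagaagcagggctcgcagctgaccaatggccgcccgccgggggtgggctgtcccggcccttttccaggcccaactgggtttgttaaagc
The TXNIP stretch held the repeated motif between 88 and 72 bases before the start. The same repeat was found in 20 of 35116 RefSeq windows, or 0.057%, and in no other window of these genes. The ARRDC4 stretch held a single CACGTG between 210 and 205 bases before the start, and the MLX window held 1 between 50 and 45 bases before it, against 7.26% of all windows. A match of letters is a description and says nothing of binding in these cells.

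Each array carried between 19693 and 22456 probes above background in WHF-treated cells and between 20793 and 22865 in untreated cells, at a detection p-value under 0.05. All 20 arrays were most similar to the other array of their own group. The epithelial genes EPCAM, KRT8 and KRT18 were above background on 4 of 4 arrays of every line but BT549, where none was, and CDH1 passed on every array of SUM 149 and MDA-MB-468, 1 array of MDA-MB-157 and 0 of the other lines. Of the mesenchymal genes, vimentin (VIM) was above background on all 20 arrays, ZEB1 on all arrays of MDA-MB-231 and BT549 and on 0 of the other lines, MDA-MB-157 included, and CDH2 on 15 arrays, with all 4 of SUM 149 and 0 of MDA-MB-468. ERBB2 was above background on all 20 arrays, ESR1 on 9 and PGR on 4, in lines described as triple-negative. The leukocyte genes PTPRC and CD3D were above background on 0 of 20 arrays, HBB on 1 and ITGAM on 5. The arrays of MDA-MB-231 lay on one chip, those of MDA-MB-468 and SUM 149 on another and those of BT549 and MDA-MB-157 on the third. WHF-treated and untreated cells of a line thus shared a chip, whereas levels of lines on different chips cannot be told apart from the chip. The study kept MDA-MB-231 and BT549 in RPMI medium, MDA-MB-468 in DMEM and MDA-MB-157 in Leibovitz medium. SUM 149 had a different DMEM medium with added insulin. Apart from MDA-MB-231 and BT549, lines thus also differed in medium, and their levels and responses cannot be told apart from it.

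TXNIP was high in 4 of the 5 lines and moved in opposite directions in them. In MDA-MB-157, log2 signals were 9.55 and 9.79 in WHF-treated cells and 13.52 and 13.41 in untreated cells, the largest difference among the 10 probes. The bead signals behind these values were 969 and 960 in WHF-treated cells and 13762 and 9013 in untreated cells. In MDA-MB-231, log2 signals were 13.51 and 13.55 in WHF-treated cells and 14.25 and 14.77 in untreated cells. WHF-treated cells were thus below untreated cells in both lines, with no overlap. In BT549 the order was the opposite, with 12.87 and 13.12 in WHF-treated cells and 11.10 and 10.97 in untreated cells. SUM 149 cells gave 13.33 and 13.53 with WHFs and 12.75 and 13.02 without. In these 2 lines both WHF-treated arrays were above both untreated arrays.

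The fitted log2 change of TXNIP was -3.79 ± 0.18 (SE of the fit, 2 arrays a group) in MDA-MB-157, 13.9-fold lower, and -0.98 ± 0.18 in MDA-MB-231, 1.97-fold lower. It was 1.96 ± 0.18 in BT549, 3.89-fold higher, and 0.55 ± 0.18 in SUM 149, 1.46-fold higher. TXNIP was not above background on any of the 4 arrays of MDA-MB-468, where log2 signals were 4.98 and 5.07 in WHF-treated cells and 5.16 and 4.97 in untreated cells, so that no change can be given there. The 2 lines with lower TXNIP are classed as mesenchymal-like, as is BT549, in which it was higher. Averaged over the 5 lines, the log2 change was -0.46 ± 0.69, which includes the difference of -0.04 between background signals in MDA-MB-468.

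The order of the lines by TXNIP differed between the treatments. With WHFs, mean log2 signals were 13.53 in MDA-MB-231, 13.43 in SUM 149, 13.00 in BT549 and 9.67 in MDA-MB-157. The values of MDA-MB-231 and SUM 149 overlapped, and those of the other neighbours did not. Without WHFs, means were 14.51 in MDA-MB-231, 13.46 in MDA-MB-157, 12.88 in SUM 149 and 11.04 in BT549, and no neighbours overlapped. MDA-MB-157 thus stood second among untreated lines and last of the 4 measured lines after WHFs, and BT549 was last of them without WHFs.

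**Figure D1:**
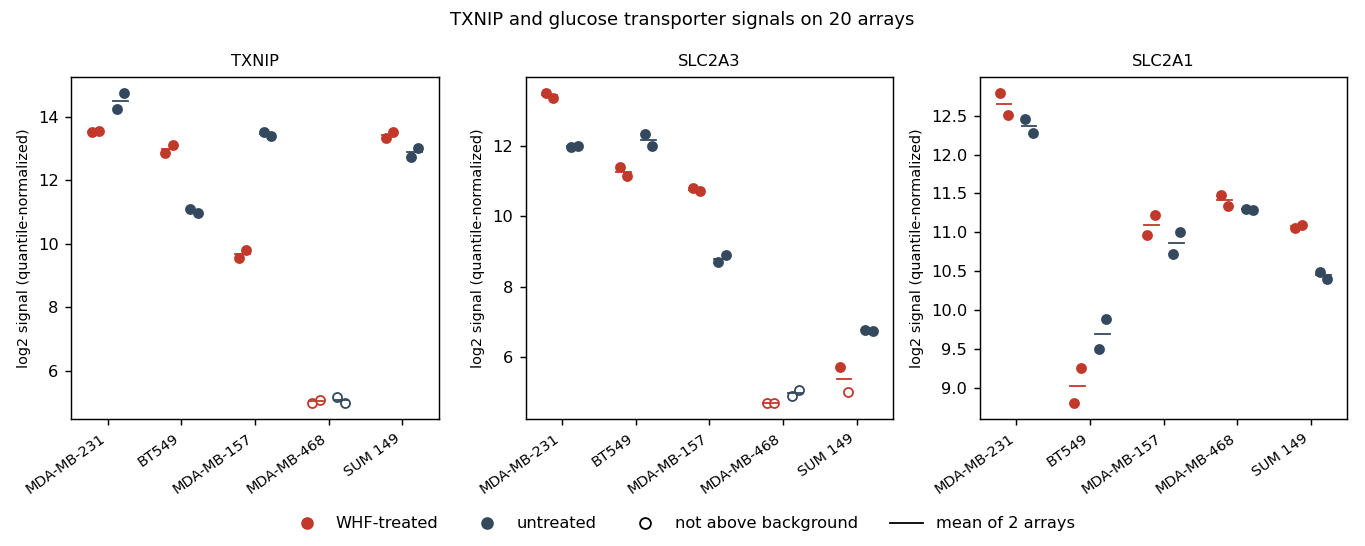
Log2 signals of TXNIP, SLC2A3 and SLC2A1 on each of the 20 arrays, by line, with WHF-treated cells left of untreated cells. Points are arrays, bars are means of 2 arrays and open points are not above background. TXNIP was lower with WHFs in MDA-MB-157 (means 9.67 and 13.46) and higher in BT549 (means 13.00 and 11.04), and SLC2A3 went the other way in both.

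SLC2A3 encodes GLUT3, a high-affinity glucose transporter best known from neurons. In MDA-MB-157 its log2 signals were 10.80 and 10.72 in WHF-treated cells and 8.70 and 8.89 in untreated cells, a log2 change of 1.97 ± 0.20. In MDA-MB-231 they were 13.52 and 13.37 in WHF-treated cells and 11.99 and 12.01 in untreated cells, a change of 1.45 ± 0.20. Both WHF-treated arrays were above both untreated arrays in these lines, the ones in which TXNIP was lower. In BT549 the signals were 11.41 and 11.14 in WHF-treated cells and 12.33 and 12.02 in untreated cells, a change of -0.90 ± 0.20. In SUM 149 they were 5.72 and 5.00 in WHF-treated cells and 6.75 and 6.74 in untreated cells, a change of -1.38 ± 0.20, but only 1 of the 2 WHF-treated arrays was above background, and on the authors' normalized intensities the change was -0.65. WHF-treated arrays were below untreated arrays in both of these lines. SLC2A3 was not above background on any array of MDA-MB-468, which also lacked TXNIP signal.

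By SLC2A3 level, WHF-treated lines ran from MDA-MB-231 (mean 13.45) through BT549 (11.28) and MDA-MB-157 (10.76) to SUM 149 (5.36), and no neighbours overlapped. Untreated lines ran from BT549 (12.17) and MDA-MB-231 (12.00) through MDA-MB-157 (8.79) to SUM 149 (6.75). The gap between untreated BT549 and MDA-MB-231 was 0.18, within the SD of 0.22 between the BT549 arrays.

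SLC2A1 encodes GLUT1, the widely expressed basal glucose transporter, and was above background on all 20 arrays. In BT549 its log2 signals were 8.80 and 9.25 in WHF-treated cells and 9.49 and 9.88 in untreated cells, a change of -0.66 ± 0.19. In SUM 149 they were 11.06 and 11.09 in WHF-treated cells and 10.49 and 10.40 in untreated cells, a change of 0.63 ± 0.19. Neither pair of groups overlapped, and these were the largest SLC2A1 differences. In MDA-MB-231 signals were 12.80 and 12.51 with WHFs and 12.46 and 12.28 without, a change of 0.28 ± 0.19. In MDA-MB-157 they were 10.97 and 11.23 with WHFs and 10.72 and 11.00 without, a change of 0.23 ± 0.19, and the groups overlapped. In MDA-MB-468 they were 11.48 and 11.34 with WHFs and 11.30 and 11.29 without, a change of 0.11 ± 0.19. Every SLC2A1 change was under 2-fold.

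Lines were ordered alike by SLC2A1 in both treatments. With WHFs, means were 12.65 in MDA-MB-231, 11.41 in MDA-MB-468, 11.10 in MDA-MB-157, 11.07 in SUM 149 and 9.03 in BT549, and only MDA-MB-157 and SUM 149 overlapped. Without WHFs they were 12.37, 11.30, 10.86, 10.45 and 9.69 in the same order of lines, with no overlap between neighbours.

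Set against TXNIP in the 4 lines where TXNIP was above background, SLC2A3 had the opposite sign in 4 and SLC2A1 in 3, the exception for SLC2A1 being SUM 149, in which both were higher. In SUM 149 only 1 of the 2 WHF-treated arrays was above background for SLC2A3. The SLC2A1 changes counted were as small as 0.28 ± 0.19 in MDA-MB-231 and 0.23 ± 0.19 in MDA-MB-157, where groups overlapped. This comparison of signs is the one by which the genes were chosen, so its count is a description. The count was unchanged when any 1 of the 20 arrays was left out. Leaving out an array can alter a sign only in its own line. Without WHF-treated replicate A of SUM 149, the sign of SLC2A3 there rests on an array that was not above background. After each line's mean was subtracted, the log2 signals of TXNIP and SLC2A3 correlated at r = -0.85 over the 20 arrays, those of TXNIP and SLC2A1 at r = -0.42 and those of SLC2A1 and SLC2A3 at r = 0.13. These are the arrays on which the genes were chosen, and the points share lines, chips and treatments and are not independent. They include the arrays of MDA-MB-468, on which neither TXNIP nor SLC2A3 was above background.

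**Figure D2:**
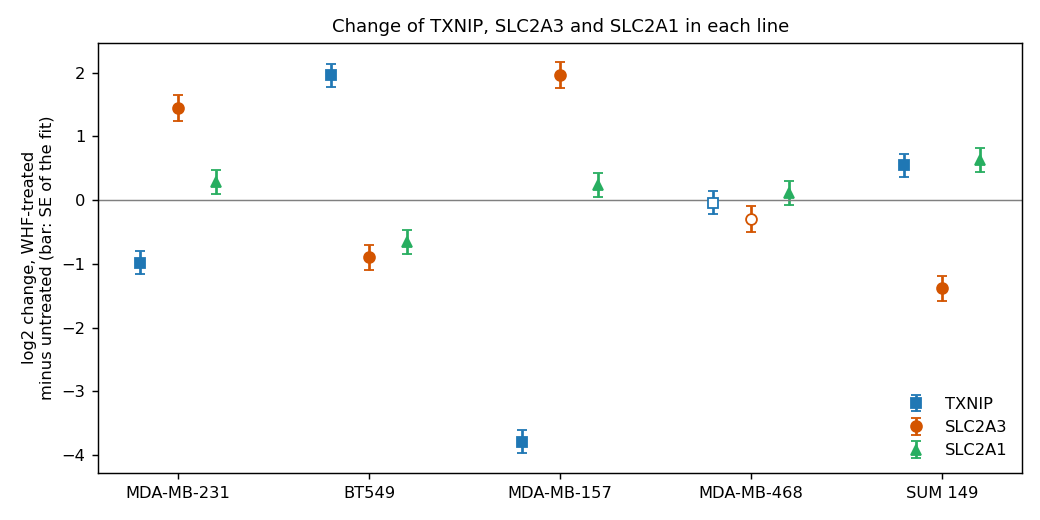
Log2 change, WHF-treated minus untreated, of TXNIP (squares), SLC2A3 (circles) and SLC2A1 (triangles) in each line, with the SE of the fit as bars. Open markers are genes below background on all arrays of that line. TXNIP and SLC2A3 lay on opposite sides of 0 in the 4 lines with signal for both, from -3.79 and 1.97 in MDA-MB-157 to 1.96 and -0.90 in BT549. In SUM 149 only 1 of the 2 WHF-treated arrays was above background for SLC2A3.

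ARRDC4, a close relative of TXNIP and the other best known MondoA target, was above background on 8 of 20 arrays with each of its 2 probes, too few for the tests over all probes. In MDA-MB-157 the probe ILMN_1660544 gave log2 signals of 5.30 and 5.18 in WHF-treated cells and 7.73 and 7.19 in untreated cells. The second probe, ILMN_2184064, gave 4.99 and 5.12 in WHF-treated cells and 7.60 and 7.09 in untreated cells. No WHF-treated array and both untreated arrays were above background, so the signal was at least 3.75-fold lower in WHF-treated cells by the first probe and at least 3.47-fold lower by the second. Such a bound sets the untreated mean against the lowest signal above background on the WHF-treated arrays. In MDA-MB-231, WHF-treated cells gave 5.04 and 5.08 and untreated cells 6.53 and 5.94 with the first probe, at least 1.40-fold lower with WHFs. With the second, WHF-treated cells gave 4.71 and 5.22 and untreated cells 6.66 and 6.75, at least 1.93-fold lower with WHFs. ARRDC4 was thus lower with WHFs in the 2 lines in which TXNIP was lower.

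In SUM 149 the ARRDC4 probes were above background on all arrays and differed from each other. The first gave 7.99 and 7.03 in WHF-treated cells and 7.63 and 7.81 in untreated cells, which overlapped, and the second 7.57 and 6.55 in WHF-treated cells and 8.09 and 7.86 in untreated cells, which did not. Their changes were -0.21 ± 0.26 and -0.91 ± 0.26, while TXNIP was higher there. In BT549, in which TXNIP was 3.89-fold higher with WHFs, neither ARRDC4 probe was above background on any array, and the same held in MDA-MB-468.

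ARRDC3 acts in the trafficking and ubiquitination of membrane receptors, the beta-adrenergic receptors among them. With both probes, WHF-treated arrays were above untreated arrays in 4 of the 5 lines, those with lower and those with higher TXNIP alike. With the probe ILMN_2198516, log2 signals in MDA-MB-231 were 8.83 and 8.54 in WHF-treated cells and 7.57 and 7.13 in untreated cells. In BT549 they were 9.34 and 9.13 with WHFs and 7.97 and 8.30 without, and in SUM 149 they were 8.23 and 8.51 with WHFs and 7.37 and 7.03 without. The groups did not overlap in any of these 3 lines. The changes were 1.33 ± 0.20 in MDA-MB-231, 1.10 ± 0.20 in BT549 and 1.16 ± 0.20 in SUM 149. In MDA-MB-157, where 1 untreated array was not above background, they were 5.95 and 6.06 with WHFs and 5.72 and 5.47 without, a change of 0.41 ± 0.20.

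The probe ILMN_2198515 of ARRDC3 gave higher signals on all arrays. Its changes were 0.99 ± 0.21 in MDA-MB-231, 0.78 ± 0.21 in BT549, 0.78 ± 0.21 in MDA-MB-157 and 1.17 ± 0.21 in SUM 149, and WHF-treated arrays were above untreated arrays in each of these lines. In MDA-MB-468 the groups overlapped with both probes. The first gave 7.44 and 7.49 in WHF-treated cells and 7.18 and 7.50 in untreated cells, and ILMN_2198515 gave 9.26 and 9.10 in WHF-treated cells and 9.37 and 9.19 in untreated cells. Averaged over the 5 lines, the changes were 0.83 ± 0.20 and 0.72 ± 0.19. The correlation of ARRDC3 with TXNIP over the line-centred arrays was r = -0.19.

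By ARRDC3 level, both probes put BT549 first and MDA-MB-157 last in both treatments. Untreated MDA-MB-231, MDA-MB-468 and SUM 149 overlapped, with means of 9.32, 9.28 and 9.15 by ILMN_2198515. With WHFs, MDA-MB-231 and SUM 149 averaged 10.31 and 10.32 and MDA-MB-468 averaged 9.18.

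**Figure D3:**
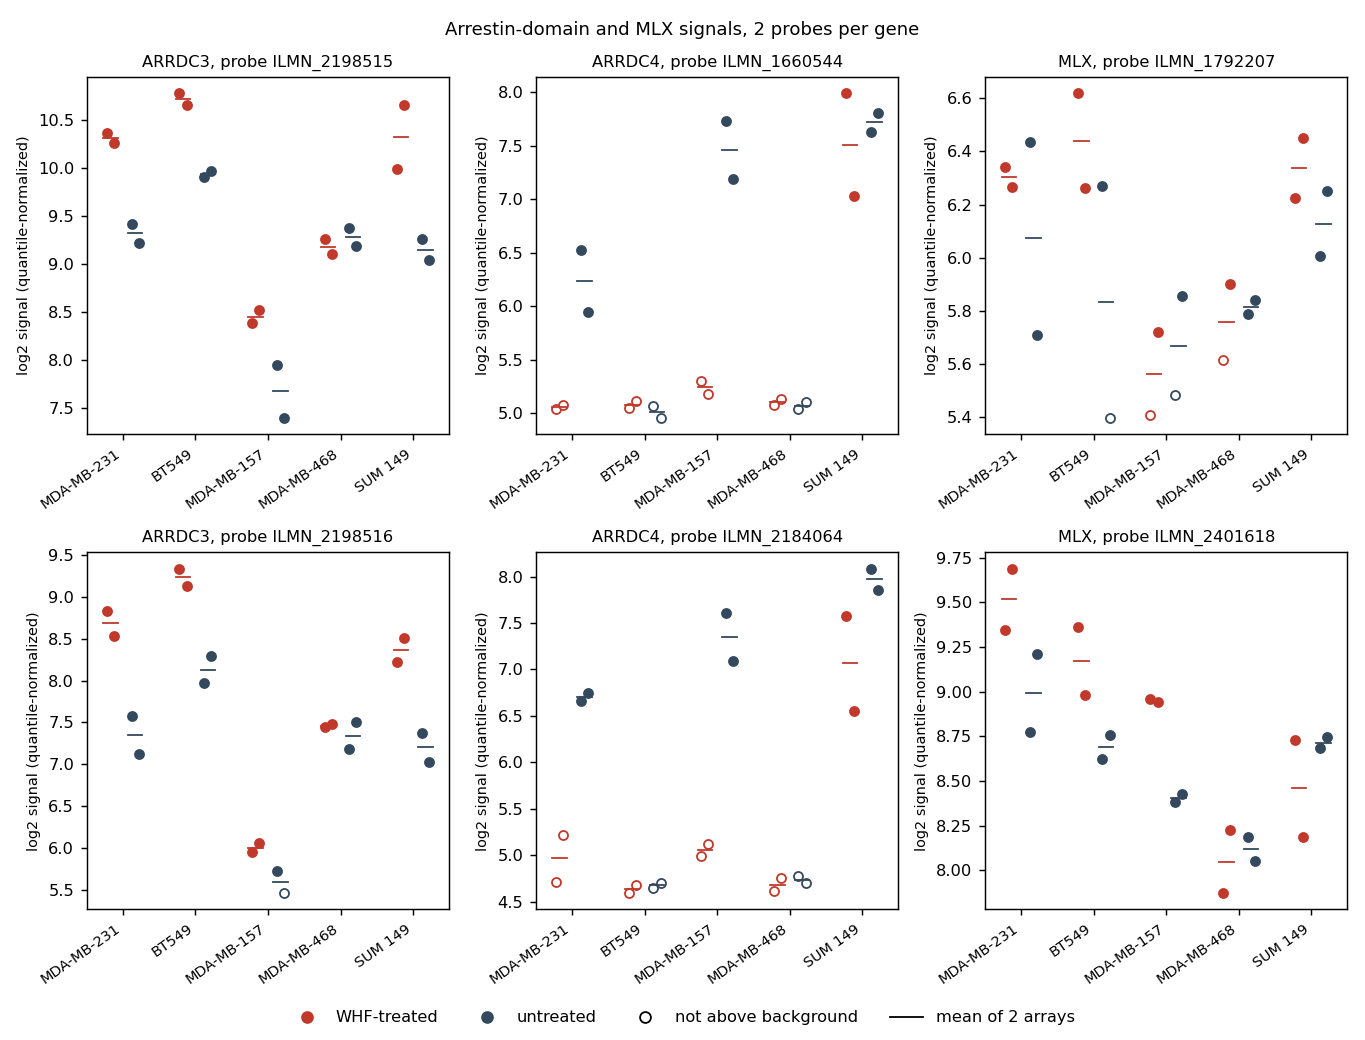
Log2 signals of the 2 probes each of ARRDC3, ARRDC4 and MLX on the 20 arrays, by line, with WHF-treated cells left of untreated cells. Points are arrays, bars are means of 2 arrays and open points are not above background. ARRDC4 was above background in untreated but not in WHF-treated MDA-MB-231 and MDA-MB-157 cells, and ARRDC3 was higher with WHFs in every line but MDA-MB-468.

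MLX changed little. Its brighter probe, ILMN_2401618, gave 8.96 and 8.94 in WHF-treated and 8.38 and 8.42 in untreated MDA-MB-157 cells, a change of 0.55 ± 0.21. Changes were 0.52 ± 0.21 in MDA-MB-231 and 0.48 ± 0.21 in BT549, where WHF-treated arrays were also above untreated ones, and -0.07 ± 0.21 in MDA-MB-468 and -0.26 ± 0.21 in SUM 149, where groups overlapped. The probe ILMN_1792207 was above background on 16 of 20 arrays, with changes between -0.11 and 0.61, and its groups overlapped in all 5 lines. The MLXIP probe, for MondoA, was not above background on any of the 20 arrays, so its RNA was not measured.

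Of the 10 probes, 7 were above background on at least 10 arrays and entered the fit over all probes, in which a change in a line was called at a false discovery rate under 0.1 and more than 2-fold. In MDA-MB-231, 2 of the 7 were called higher and 0 lower, beside 2.8% and 3.83% of all 21189 probes. In BT549 the counts were 2 and 0, beside 4.53% and 6.37%. In MDA-MB-157 they were 1 and 1, beside 1.03% and 1.36%. In MDA-MB-468 they were 0 and 0, beside 0.826% and 0.779%. In SUM 149 they were 2 and 1, beside 3.9% and 6.5%. The called changes were TXNIP in BT549 and MDA-MB-157, SLC2A3 in MDA-MB-231, MDA-MB-157 and SUM 149, ARRDC3 by ILMN_2198516 in MDA-MB-231, BT549 and SUM 149, and ARRDC3 by ILMN_2198515 in SUM 149. On the authors' normalized intensities 4 of these 9 changes were under 2-fold, SLC2A3 in SUM 149 (-0.65) and ARRDC3 by ILMN_2198516 in MDA-MB-231 (0.96), BT549 (0.89) and SUM 149 (0.80). Over the 5 lines, with each line as a block and the same rate, 0 of 7 were called in either direction, beside 0.0189% higher and 0.0566% lower of all probes. As the genes were chosen on these values, nothing is read from these counts.

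By correlation with TXNIP over the 20 line-centred arrays, the 5 most similar genes were FRAS1 (r = 0.96), UNC119B (0.89), CAT (0.86), TLE1 (0.86) and GRB14 (0.86). FRAS1 encodes an extracellular matrix protein, CAT the peroxide-degrading enzyme catalase and GRB14 an adaptor of the insulin receptor. FRAS1 changed by -3.01 in MDA-MB-157 and 2.04 in BT549 on the log2 scale, and GRB14 by -2.04 in MDA-MB-157 and 1.41 in BT549. In other lines some went against TXNIP. In SUM 149 FRAS1 changed by -0.23 and CAT by -0.15, and in MDA-MB-231 GRB14 changed by 0.45 and CAT by 0.10. UNC119B and TLE1 had the sign of TXNIP in every line in which TXNIP was above background. The 5 least similar were TPST2 (-0.90), TM4SF19 (-0.88), PIAS2 (-0.88), MIDN (-0.88) and MGST3 (-0.86). TM4SF19 changed by 2.50 in MDA-MB-157 and -0.07 in BT549, and MIDN by 1.18 in MDA-MB-157 and -1.27 in BT549. For SLC2A1, the most similar were SLC2A4RG (0.89), TMED4 (0.85), PAPLN (0.83), IGFBP6 (0.82) and HYAL2 (0.82). The least similar to SLC2A1 were ARFIP1 (-0.90), TOR1AIP1 (-0.88), SH3RF2 (-0.87), CCDC126 (-0.86) and NCK2 (-0.84). No gene stood in both sets.

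The genes around these in the pathway were taken from 7 lists of 71 genes, of which 65 had a probe and 51 were tested, 1 probe each. Of the genes named below, ARRB1 and KLF10 had 2 other tested probes each. ARRDC2, SLC2A10, MYC, MXI1, TXNRD1, HK2, PFKFB3 and NEDD4 had 1 other each. None of these other probes is shown. In MDA-MB-231, 2 of the 51 were higher and 7 lower with WHFs (3.92% and 13.7%, beside 2.8% and 3.83% of all probes). In BT549, 4 were higher and 3 lower (7.84% and 5.88%, beside 4.53% and 6.37%), and in SUM 149 again 4 and 3, beside 3.9% and 6.5%. In MDA-MB-157, 2 were higher and 2 lower (3.92% each, beside 1.03% and 1.36%), and in MDA-MB-468, 1 was higher and 2 lower (1.96% and 3.92%, beside 0.826% and 0.779%). Over the 5 lines 0 were called in either direction with limma, beside 0.0189% higher and 0.0566% lower of all probes. An unadjusted p under 0.05 was reached by 9, and the share of all probes that reached it was not computed. The median log2 change of the 51 was -0.01. In the single lines their median lay between -0.06 in SUM 149 and 0.05 in MDA-MB-157, while that of all tested probes was no more than 0.02 from 0. By the limma F test for unequal responses of the 5 lines (4 interaction terms), 30 of the 51 passed (58.8%, beside 41.1% of all probes). The list shares rest on the tested probe with the highest mean for each gene, and the shares of all probes include dimmer and unnamed ones. The lists were also chosen with earlier results of these data known, so nothing is read from differences between these shares. On the authors' normalized intensities, 4 genes rather than 7 were lower in MDA-MB-231, 1 rather than 4 higher in BT549, 2 rather than 4 higher in SUM 149, and 1 each rather than 2 each higher and lower in MDA-MB-157. With 1 array left out, the count of higher genes ranged from 0 to 2 in MDA-MB-468 and from 1 to 2 in MDA-MB-157. Without WHF-treated replicate A of SUM 149, 7 genes rather than 3 were lower in that line, and without untreated replicate A of BT549, 5 rather than 3 were lower there.

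Among 14 other hexose transporters, of which 7 were tested, 4 were called in at least 1 line. The share of all probes called in at least 1 line was not computed, so nothing is read from this count or from those of the lists below. SLC2A12, which encodes GLUT12, was lower with WHFs in 4 lines. It averaged 5.79 in WHF-treated and 8.10 in untreated BT549 cells (log2 change -2.31 ± 0.21, adjusted p = 4.4e-06, limma) and 6.08 in WHF-treated and 7.34 in untreated MDA-MB-231 cells (-1.26 ± 0.21). No WHF-treated array of MDA-MB-157 or SUM 149 was above background for it, and the signal was at least 1.69-fold and at least 2.01-fold lower with WHFs there. In MDA-MB-468 it changed by 0.26 ± 0.21 and was not called. SLC2A6 (GLUT6) was lower with WHFs in MDA-MB-468 (mean 5.72 with WHFs and 7.64 without, adjusted p = 0.00065) and in MDA-MB-231 (mean 8.11 with WHFs and 9.49 without, adjusted p = 0.0021). SLC2A10 (GLUT10) was lower with WHFs in MDA-MB-231 (-1.15 ± 0.25) and higher in MDA-MB-468 (1.08 ± 0.25).

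SLC2A14 encodes GLUT14, a near-identical copy of GLUT3, so that its probe and that of SLC2A3 may each take up RNA of the other gene, which was not tested. In MDA-MB-231 it gave 9.26 and 9.09 in WHF-treated cells and 7.48 and 7.80 in untreated cells (1.54 ± 0.21, adjusted p = 0.00024), next to an SLC2A3 change of 1.45. In MDA-MB-157 it was above background on both WHF-treated arrays and no untreated array, at least 2.19-fold higher with WHFs (adjusted p = 0.00053). In BT549 it changed by -0.09 ± 0.21, against -0.90 for SLC2A3. It was not above background in MDA-MB-468 or SUM 149.

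Of 5 other arrestin-fold genes, 3 were tested. ARRB1, for the receptor adaptor beta-arrestin 1, averaged 5.85 in WHF-treated and 9.17 in untreated MDA-MB-231 cells (-3.33 ± 0.21, adjusted p = 3.6e-07), with 1 WHF-treated array not above background. In SUM 149 ARRB1 was at least 3.93-fold lower with WHFs (adjusted p = 8e-06). ARRDC2 was higher with WHFs in SUM 149 (mean 9.76 with WHFs and 8.32 without, 1.45 ± 0.20), and ARRDC1 was not called in any line. The largest ARRDC1 change was -0.89 ± 0.18 in BT549, where no WHF-treated array was above background.

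Of the MAX and MLX network, which shares DNA sites with the MondoA and MLX pair, 9 of 10 genes were tested and 3 were called in at least 1 line. MXD4, a repressor that pairs with MAX or MLX, was called lower with WHFs in MDA-MB-231, MDA-MB-157 and BT549. Its changes were -1.51 ± 0.20 in MDA-MB-231, -1.27 ± 0.20 in MDA-MB-157 and -1.12 ± 0.20 in BT549. In SUM 149 its change was -0.72 ± 0.20 (adjusted p = 0.017), under 2-fold, with both WHF-treated arrays (8.82 and 8.14) below both untreated ones (9.19 and 9.21). MXD3 was called higher in SUM 149 (1.92 ± 0.22, adjusted p = 3.1e-05) and MYC in BT549 (1.01 ± 0.16, adjusted p = 0.00037). MXD3 had the opposite sign in every other line, under 2-fold. Its changes there ran from -0.98 ± 0.22 (MDA-MB-157, adjusted p = 0.019) to -0.40 ± 0.22 (MDA-MB-231, adjusted p = 0.24). MYC was lower in SUM 149 (-0.87 ± 0.16, adjusted p = 0.0013) and MDA-MB-468 (-0.36 ± 0.16, adjusted p = 0.28), under 2-fold. Its change was 0.66 ± 0.16 for MDA-MB-157 and 0.59 ± 0.16 for MDA-MB-231, also under 2-fold. MXI1 was not called in any line.

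The genes that make or use sugar phosphates comprised 13, of which 10 were tested and 2 called in at least 1 line. PFKFB4, which sets the level of the glycolytic activator fructose 2,6-bisphosphate, was lower with WHFs in BT549 (-1.72 ± 0.22), MDA-MB-468 (-1.66 ± 0.22) and MDA-MB-231 (-1.60 ± 0.22). HKDC1, of the hexokinase family, was higher in MDA-MB-157 (1.71 ± 0.42, adjusted p = 0.027). HK2, which phosphorylates glucose on entry, had positive changes between 0.20 and 0.76 in the 5 lines and was not called in any. PFKFB3 was not called, with changes between -0.79 ± 0.20 in SUM 149 and 0.64 ± 0.20 in MDA-MB-468.

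Among 8 other carbohydrate-response targets, 5 were tested. KLF10, a transcription factor, was higher with WHFs in BT549 (1.40 ± 0.34) and SUM 149 (1.38 ± 0.34). It had 2 other tested probes, which are not shown. RGS16, a brake on G protein signalling, was higher in BT549 (1.59 ± 0.22, adjusted p = 9.8e-05), where 1 untreated array was not above background. Its change was 0.86 ± 0.22 in MDA-MB-468, 0.66 ± 0.22 in MDA-MB-231 and -0.58 ± 0.22 in SUM 149, all under 2-fold. For it, no untreated MDA-MB-231 array, no WHF-treated SUM 149 array and no MDA-MB-157 array was above background. KHK and PNPLA3 were not called in any line.

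Of 10 thioredoxin system genes, 7 were tested and 0 were called in any line with limma, with 0 of 7 under an unadjusted p of 0.05 over the 5 lines. TXNRD1, for thioredoxin reductase, came nearest with 0.97 ± 0.19 in MDA-MB-468, and TXN2, TXNRD2 and PRDX4 changed by 0.59 or less in either direction. Among 11 ubiquitin ligases and membrane recycling genes, 10 were tested and 2 were called. WWP2, a ligase of the family that alpha-arrestins recruit, was higher with WHFs in MDA-MB-231 (mean 9.07 with WHFs and 6.76 without, 2.31 ± 0.27), BT549 (1.05 ± 0.27) and SUM 149 (1.02 ± 0.27). NEDD4L, of the same family, was lower in SUM 149 (-2.32 ± 0.25, 1 WHF-treated array not above background) and MDA-MB-231 (-1.10 ± 0.25). NEDD4 and WWP1 were not called, with all changes under 2-fold. The largest were -0.98 ± 0.21 in BT549 and -0.85 ± 0.21 in SUM 149 for NEDD4 and -0.80 ± 0.15 in BT549 for WWP1.

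**Figure D4:**
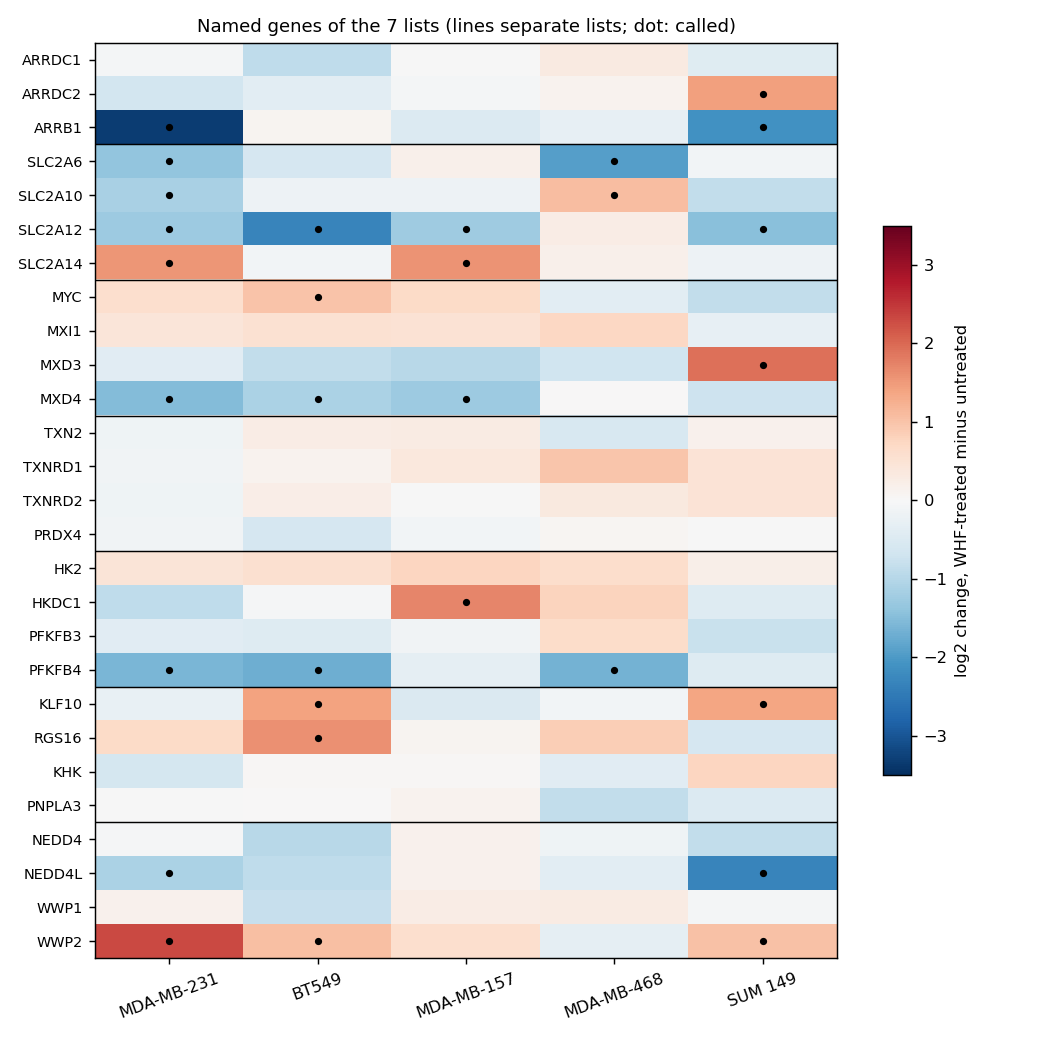
Log2 change, WHF-treated minus untreated, of 27 genes from the 7 lists in each line, as colour. Dots mark changes called at a false discovery rate under 0.1 and more than 2-fold, and black lines separate the lists. SLC2A12 was called lower in 4 lines, and none of the 4 thioredoxin system genes shown was called.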

How the data were processed

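The authors extracted total RNA from WHF-treated and untreated cells, hybridised it to Illumina beadchips and read signals with BeadStudio. One deposited table gives mean bead signals, an intensity without normalization or background correction, with a detection p-value for each probe and array. In the other deposited table the authors had quantile-normalized the intensity. The supplied annotation is for a different version of the array than version 3.0 of the methods, so some probes may lack names. It gave 30113 probes 1 gene symbol, 8 several and 17202 none.

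Bead signals were background-corrected with limma 3.58.1 (R 4.3.3) by the normexp model with detection p-values, quantile-normalized and put on the log2 scale (offset 16). To be tested, a probe needed a detection p under 0.05 on 10 arrays or more, which 21189 met. Changes in each line came from 1 limma fit of 10 groups, called above 2-fold at a Benjamini-Hochberg rate of 0.1. Its F test compared the responses of the lines. Over the 5 lines, replicates were averaged and the line was a block. The methods describe a first set and an independent preparation of the same lines, but the labels do not tie the letters to them, so p-values measure the spread between these arrays, which may be technical. List genes were measured by the tested probe with the highest mean, and up to 4 a list were named, by the number of lines called and then by size of change. The members and lists were chosen with earlier results of these data known. The fits were tested on simulated data. Alternatives were the authors' normalized intensities, no background correction, no detection filter, a replicate block, each array left out, and, over the lines, each letter and each line left out. Arrays have no counting depth, and 2 arrays a group limit the precision.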

Additional observations from a re-analysis of the deposited data

Results flagged for a closer look

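In 3 of the genes followed here, all WHF-treated arrays were above all untreated arrays in at least 1 line and below them in another. The highest and the lowest log2 change among such lines were 5.75 apart for TXNIP (BT549 and MDA-MB-157), 3.35 apart for SLC2A3 (MDA-MB-157 and SUM 149) and 1.29 apart for SLC2A1 (SUM 149 and BT549). As these genes were chosen on these values, the differences between lines are given as a description and are read as not tested.

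Of the 27 named genes of the lists, 23 had responses that differed between lines by the limma F test for unequal responses (4 interaction terms). The threshold was an adjusted p under 0.1 over all probes, which 41.1% of all probes met. These genes were named for their number of called lines and size of change in the same fit, which favours genes that pass. The count is thus not compared with that share, and the F values below are a description. F was 48.4 for ARRB1, 16.4 for ARRDC2 and 6.86 for ARRDC1. Among transporters it was 18.6 for SLC2A12, 16.8 for SLC2A14, 12.1 for SLC2A10 and 11.5 for SLC2A6. It was 29.3 for MXD3, 23.1 for MYC and 8.5 for MXD4. In the thioredoxin system it was 4.69 for TXNRD1, 3.7 for PRDX4 and 3.63 for TXN2. Among genes of sugar phosphate use and carbohydrate response it was 13.9 for RGS16, 10.2 for PFKFB4, 7.51 for PFKFB3, 7.45 for KLF10, 6.19 for HKDC1 and 4.45 for PNPLA3. Among ubiquitin ligases it was 13.7 for NEDD4L, 12 for WWP2, 9.37 for WWP1 and 5.76 for NEDD4. SLC2A10 was called lower with WHFs in MDA-MB-231 and higher in MDA-MB-468, the only named gene called in both directions.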

How the results depend on the processing

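On the authors' normalized intensities and, with the same counts, without background correction, list genes called lower in MDA-MB-231 numbered 4 (7 in the report), those called higher in BT549 1 (4), those called higher and lower in MDA-MB-157 1 each (2 each) and those called higher in SUM 149 2 (4). On either scale 8 of the 35 changes of tested member probes moved by more than 1 SD, all towards 0, and 0 changed sign, but 4 of the 9 called ones fell under 2-fold. The cause was not tested. Without the detection filter none of the 50 member changes moved. When each array was left out in turn, list genes higher in MDA-MB-468 ranged from 0 (without untreated A) to 2 (without WHF-treated A or untreated B), those higher in MDA-MB-157 from 1 (without WHF-treated A or untreated B) to 2, those lower in BT549 from 3 to 5 (without untreated A) and those lower in SUM 149 from 2 to 7 (without WHF-treated A). Of 700 member changes, 9 changed sign, none of them a called one and each at most 0.26 in size in the report. Each change depends only on the arrays of its own line. Most of the 700 thus could not move, and 9 of 700 is not a rate of sign changes. TXNIP ranged from -3.91 to -3.67 in MDA-MB-157 and from 1.84 to 2.08 in BT549. The count of opposite signs of TXNIP and SLC2A3 stayed at 4 and that of TXNIP and SLC2A1 at 3 in every alternative.

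Replicate letters are shared by WHF-treated and untreated cells. The deviations of arrays with the same letter correlated between 0.04 in MDA-MB-231 and 0.30 in MDA-MB-157, with 2 of 5 lines under 0.1, so the letters were not taken as pairs. With the replicate block over the 10 letter pairs, 4 list genes were higher and 6 lower over the 5 lines, against 0 and 0, and 2 of the 7 member probes, both of ARRDC3, were called higher. That fit counts arrays A and B of a line separately and called 12.4% of all probes higher and 12.9% lower. It changed no count in the single lines by more than 1.5 times. Leaving out a letter or a line changed no count over the 5 lines. Signals near background limit TXNIP and SLC2A3 in MDA-MB-468, ARRDC4 in 4 lines and MLXIP in all.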
